A study of Homo sapiens with 12 samples.

Results

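The genes described here carry symbols of enzyme families that add or remove methyl groups on histones or take acetyl groups off them. Not all of these genes encode such an enzyme. They were chosen by symbol alone, as every gene name in the annotated SOX2 and SOX17 peak lists that begins with KDM, KMT, HDAC, SIRT, SETD or PRMT followed by a digit. The rule found 32 genes among the 12911 genes named by either list, 23 of 9360 genes in the SOX2 list and 23 of 9780 in the SOX17 list. They were the nearest genes of 42 of the 17795 SOX2 peaks and of 55 of the 17507 SOX17 peaks. Of the 32, 31 code for proteins and KDM7A-DT is a long noncoding RNA gene. RefSeq holds 63 protein-coding genes whose symbols fit the same rule, so 32 enzyme genes had no peak in either list.

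The study mapped where 2 SOX transcription factors bind in cultured human cells from testicular germ cell tumours. The antibody to SOX2 was applied to 2102EP, a line with the features of embryonal carcinoma, and that to SOX17 to TCam-2, a line with the features of seminoma. Each antibody was used on 3 replicates of its line and each line had 3 libraries of 2% input chromatin, 12 libraries in all. No genetic change or treatment was named for any group, and each factor was mapped in 1 line, so factor, antibody and cell line cannot be told apart in any difference between the lists.

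The deposited lists are merged over replicates, so the values below have no replicate error, the depth behind a peak is unknown, and no test of a difference was made. The lists hold no expression values, so the identity of the lines was not checked here. Each peak carries the authors' own score, given here with its percentile, the share of peaks in the same list with a score that high or lower. Scores were compared only within a list. A peak is assigned to the gene with the nearest transcription start site (TSS), whether or not it acts on that gene, and a gene with no peak in a merged list is not shown to be unbound.

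Histone lysine methylation marks chromatin by residue. Methylation of H3K4 marks promoters and enhancers, that of H3K36 the bodies of transcribed genes, and that of H3K9, H3K27 and H4K20 chromatin that is mostly compact or silent. Methyltransferases with a SET domain write these marks and demethylases of the KDM families erase them. Histone deacetylases and sirtuins remove acetyl groups from histones, often as parts of corepressor complexes. In pluripotent cells SOX2 binds DNA together with OCT4 at a canonical composite site, whereas SOX17 and OCT4 pair at a compressed composite site, which has 1 base fewer between its SOX and OCT parts.

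Among the 97 peaks of the enzyme genes, 1 held a composite site and 14 SOX2 peaks overlapped a SOX17 peak. The genomic sequences of that composite site and of 4 overlapping regions with a high mean percentile, those of HDAC9, KDM2B, KMT2A and KMT2C, are printed on the plus strand of hg38, with the SOX2 peak of KDM4A that led all enzyme genes, which was added after its value was seen. Capitals mark SOX sites (CATTGT or CTTTGT) and OCT sites (ATGCAAAT or ATGCTAAT), read on either strand, and in PRMT8 the whole compressed composite. The spans are the 2 peaks joined, except that HDAC9 stops before the TSS and PRMT8 shows the composite with its flanks.
PRMT8 chr12:3428136-3428175: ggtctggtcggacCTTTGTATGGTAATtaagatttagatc
HDAC9 chr7:18495588-18495709: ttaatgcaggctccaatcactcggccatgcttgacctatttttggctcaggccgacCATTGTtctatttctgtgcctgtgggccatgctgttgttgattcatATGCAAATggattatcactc
KDM2B chr12:121582804-121582922: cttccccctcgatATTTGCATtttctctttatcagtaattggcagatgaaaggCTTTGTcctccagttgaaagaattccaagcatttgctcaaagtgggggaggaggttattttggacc
KMT2A chr11:118462362-118462487: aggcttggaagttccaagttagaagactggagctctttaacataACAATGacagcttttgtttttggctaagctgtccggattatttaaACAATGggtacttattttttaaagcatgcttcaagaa
KMT2C chr7:152399463-152399586: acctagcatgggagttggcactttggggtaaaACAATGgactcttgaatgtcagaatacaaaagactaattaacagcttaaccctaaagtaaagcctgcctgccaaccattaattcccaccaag
KDM4A chr1:43660558-43660672: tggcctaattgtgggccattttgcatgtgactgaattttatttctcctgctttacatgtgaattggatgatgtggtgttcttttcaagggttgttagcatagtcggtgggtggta
Other regions of similar or higher mean percentile are not printed, so the set does not show how often a site occurs. That is counted further on. Among the regions left out, that of HDAC2 and the KDM4C region farthest from the TSS held no SOX site, and the overlapping KDM4A region held 1. HDAC9 and KDM2B showed a SOX and an OCT site in the same region, 40 and 32 bases apart. The KMT2A and KMT2C regions showed SOX sites and no OCT site, and the leading KDM4A SOX2 peak held neither site in the letters printed.

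The enzyme genes were near SOX2 and SOX17 peaks about as often as other genes. Of the 63 protein-coding enzyme genes, 23 (36.5%) were nearest to a SOX2 peak, against a background of 31.5% of 20037 protein-coding genes. For SOX17 the count was 22 (34.9%), against 33.5%. Both lists named 14 enzyme genes (22.2%), against 20.9%, and 10 (15.9%) had a SOX2 peak that overlapped a SOX17 peak by at least 1 bp, against 12.0%. In either list there were 31 (49.2%), against 44.1%. Only the share with a peak in the authors' promoter-TSS class stood further off, with 6 genes (9.52%) against 3.45%, a small count. The SOX2 list alone named 9 enzyme genes (14.3%, against 10.6% of all) and the SOX17 list alone 8 protein-coding ones (12.7%, against 12.6%). Gene size went with having a peak: the median RefSeq length was 68433 bp for the 31 enzyme genes with a peak and 25898 bp for the 32 without, beside 45439 bp and 15526 bp over all protein-coding genes.

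**Figure D1:**
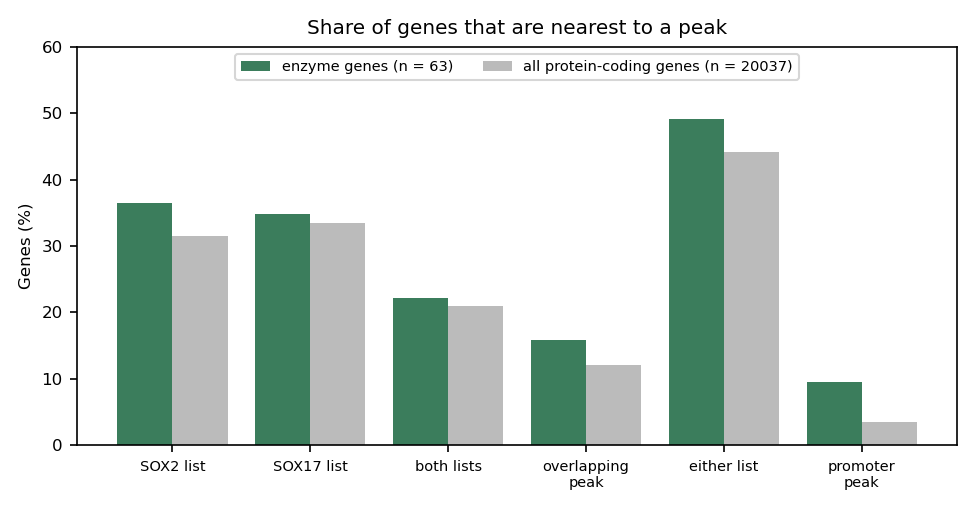
Bars give the percentage of the 63 protein-coding enzyme genes (green) and of all 20037 protein-coding genes (grey) that were the nearest gene of a peak, by list and kind of peak. The pairs of bars lie close together except for promoter peaks, where 6 enzyme genes make up 9.52% against 3.45%.

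Most peaks of the enzyme genes lay inside genes, and the median score of their SOX2 peaks lay above the middle of the list. The median percentile was 62.4 for SOX2 (95% binomial interval of the median 54.5 to 75.1). For SOX17 it was 58.2 (49.1 to 64.0), an interval that holds the middle of the list. These median intervals treat peaks as independent, although KDM4C gave 9 and HDAC9 5 of the 42 SOX2 peaks, and no difference was tested. By the authors' annotation, 29 of 42 SOX2 peaks (69.0%) and 36 of 55 SOX17 peaks (65.5%) were intronic, against 43.5% and 44% of all peaks. Repeats held 12 SOX2 peaks (28.6% against 41.4%) and 17 SOX17 peaks (30.9% against 43.1%), and LTR elements, the remains of endogenous retroviruses, held 5 (11.9% against 25.5%) and 4 (7.27% against 22.6%). In these comparisons all peaks include those nearest to noncoding genes, while nearly all enzyme genes here code for proteins. Of the 97 peaks, 63 had their centre inside the RefSeq body of the gene they were assigned to. Among SOX2 peaks of the enzyme genes 14 of 42 (33.3%, 95% Wilson interval 21.0 to 48.4) overlapped a SOX17 peak, against 24.9% of all SOX2 peaks. Among their SOX17 peaks 14 of 55 (25.5%, 15.8 to 38.3) overlapped a SOX2 peak, against 25.3% of all. Both intervals, which cover counting error only and treat peaks as independent, contain the share of all peaks.

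**Figure D2:**
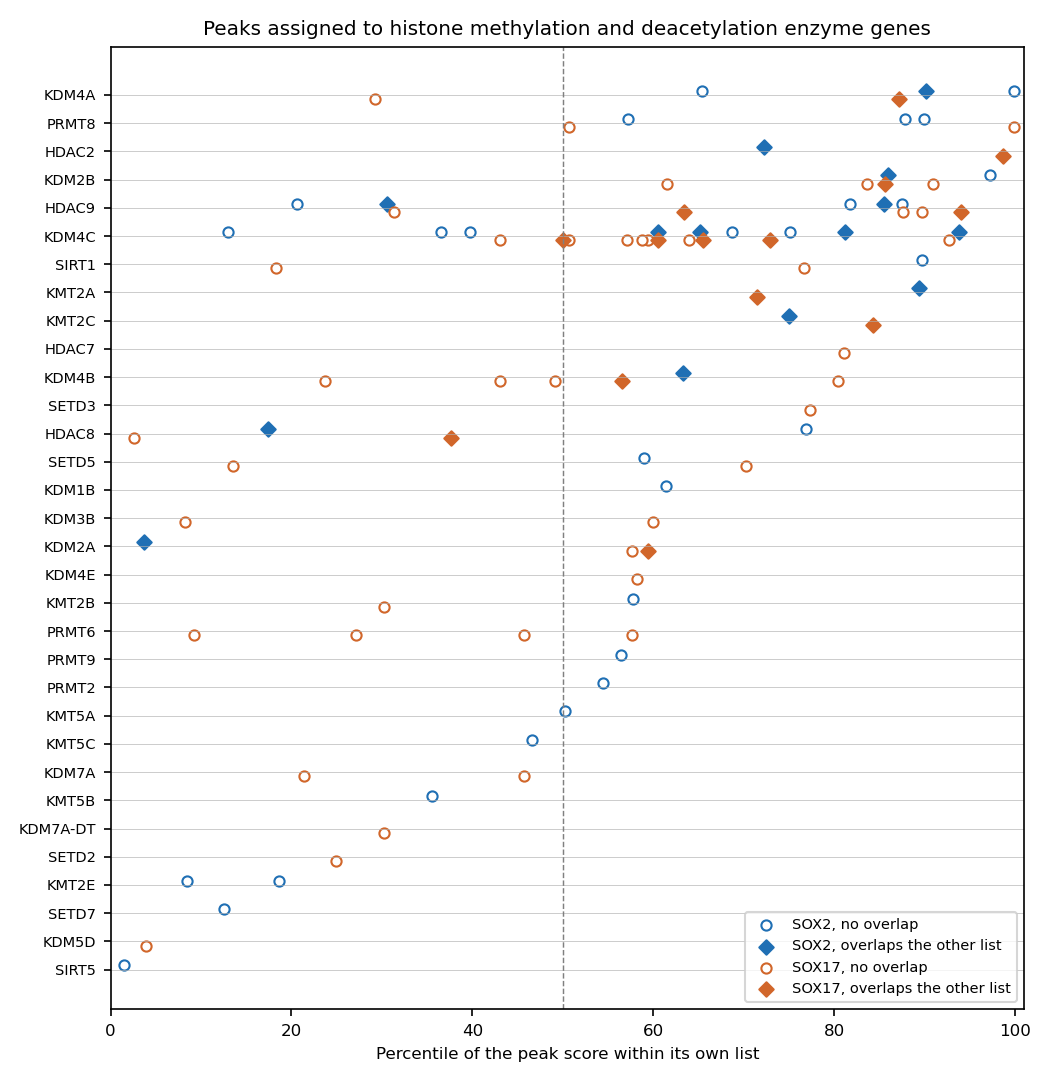
Each row is a gene and each symbol a peak, placed by the percentile of its score within its own list; blue is SOX2 in 2102EP, orange is SOX17 in TCam-2, and filled diamonds overlap a peak of the other list. Rows are ordered by the highest percentile, from KDM4A at 99.92 down to SIRT5 at 1.51, and the dashed line marks the middle of a list.

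Demethylases of H3K36 and H3K9 are the group with the most genes here, and 8 of 11 had a peak, beside 44.1% of all protein-coding genes. This is a small count, and gene size, which went with having a peak, was not taken into account. The demethylase genes of this group carried 16 of the 42 SOX2 and 29 of the 55 SOX17 peaks, of which KDM4C alone gave 9 and 11. The SOX2 list named KDM2A, KDM2B, KDM4A, KDM4B and KDM4C, and each of these 5 also had a SOX17 peak that overlapped a SOX2 peak. That makes 5 of 11 genes with an overlapping pair, beside 12.0% of all protein-coding genes. This too is a small count without regard to gene size. KDM3B, KDM4E and KDM7A had SOX17 peaks alone, and KDM3A, KDM4D and KDM8 had none. KDM4F, which is in no group here, had none either.

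KDM4A, a demethylase of H3K9 and H3K36, had the highest-ranked SOX2 peak of the enzyme genes. This peak, at chr1:43660558-43660672 in intron 4 and 10489 bp downstream of the TSS, had a score of 481.8, rank 15 in the list and percentile 99.92. The nearest SOX17 peak was 19855 bp away. A second SOX2 peak lay in intron 2 at percentile 65.4. The overlapping pair assigned to KDM4A sat 46964 bp upstream, inside an intron of PTPRF, a receptor tyrosine phosphatase gene, at percentile 90.2 for SOX2 and 87.2 for SOX17. A SOX17 peak 9501 bp upstream had percentile 29.2. No SOX17 peak lay inside the KDM4A gene body.

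KDM4C, a close relative of KDM4A that also erases H3K9 methylation, had 9 SOX2 and 11 SOX17 peaks, more than any other enzyme gene in either list. Over all protein-coding genes, 48 (0.240%) had at least 9 SOX2 peaks and 9 genes (0.0449%) had at least 11 SOX17 peaks. The gene is 454786 bp long, and 5 SOX2 and 7 SOX17 peaks lay within it, or 11 and 15.4 peaks per Mb, against 5.76 and 5.67 per Mb of genome. SOX2 percentiles ran from 13 to 93.8 and SOX17 percentiles from 43.1 to 92.7. Of the 4 overlapping pairs, 2 were in the early introns, 20066 bp (81.2 for SOX2, 60.5 for SOX17) and 41062 bp (60.5, 50) from the TSS, the second of them in an SVA_D element. The other 2 lay beyond the 3' end, 453747 bp (65.2, 65.5) and 483379 bp (93.8, 72.9) from the TSS, the last in an L1MDa element. The highest SOX17 peak, in intron 5 at percentile 92.7, overlapped no SOX2 peak.

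KDM4B, the third KDM4 gene with several peaks, had 1 SOX2 and 5 SOX17 peaks. Its overlapping pair in intron 7, 105424 bp from the TSS, had percentiles of 63.3 for SOX2 and 56.5 for SOX17. The highest of its SOX17 peaks was in intron 3, in a MER58B element, at percentile 80.4. The peak 17165 bp upstream of KDM4B lay in an intron of UHRF1, which encodes a protein that maintains DNA methylation, at percentile 43.1. KDM4E had 1 SOX17 peak, 212 bp upstream of its TSS, at percentile 58.2.

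KDM2B, an H3K36 demethylase that also brings Polycomb complexes to CpG islands, had peaks of both factors around its start. A SOX2 and a SOX17 peak overlapped 1842 bp upstream of the TSS, in the noncoding gene KDM2B-DT, at percentiles of 86.0 and 85.6. Its highest SOX2 peak, in intron 6, had a score of 159.07 and rank 495 (percentile 97.2). The closest SOX17 peak to that one was 2476 bp away and did not overlap it. The other 3 SOX17 peaks were intronic, at percentiles 61.5, 83.6 and 90.9. The paralogue KDM2A had SOX17 peaks at percentiles 59.4 and 57.6, the latter 45 bp from an annotated TSS. The former, in a Tigger2a element, overlapped a SOX2 peak at percentile 3.68, near the bottom of that list.

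KDM3B, an H3K9 demethylase, had 2 SOX17 peaks in intron 1, at percentiles 60 and 8.22. KDM7A, which acts on H3K9 and H3K27, had 2 in intron 1, at 45.7 and 21.4. The SOX17 peak assigned to the noncoding KDM7A-DT lay 83715 bp from its TSS at percentile 30.2.

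**Figure D3:**
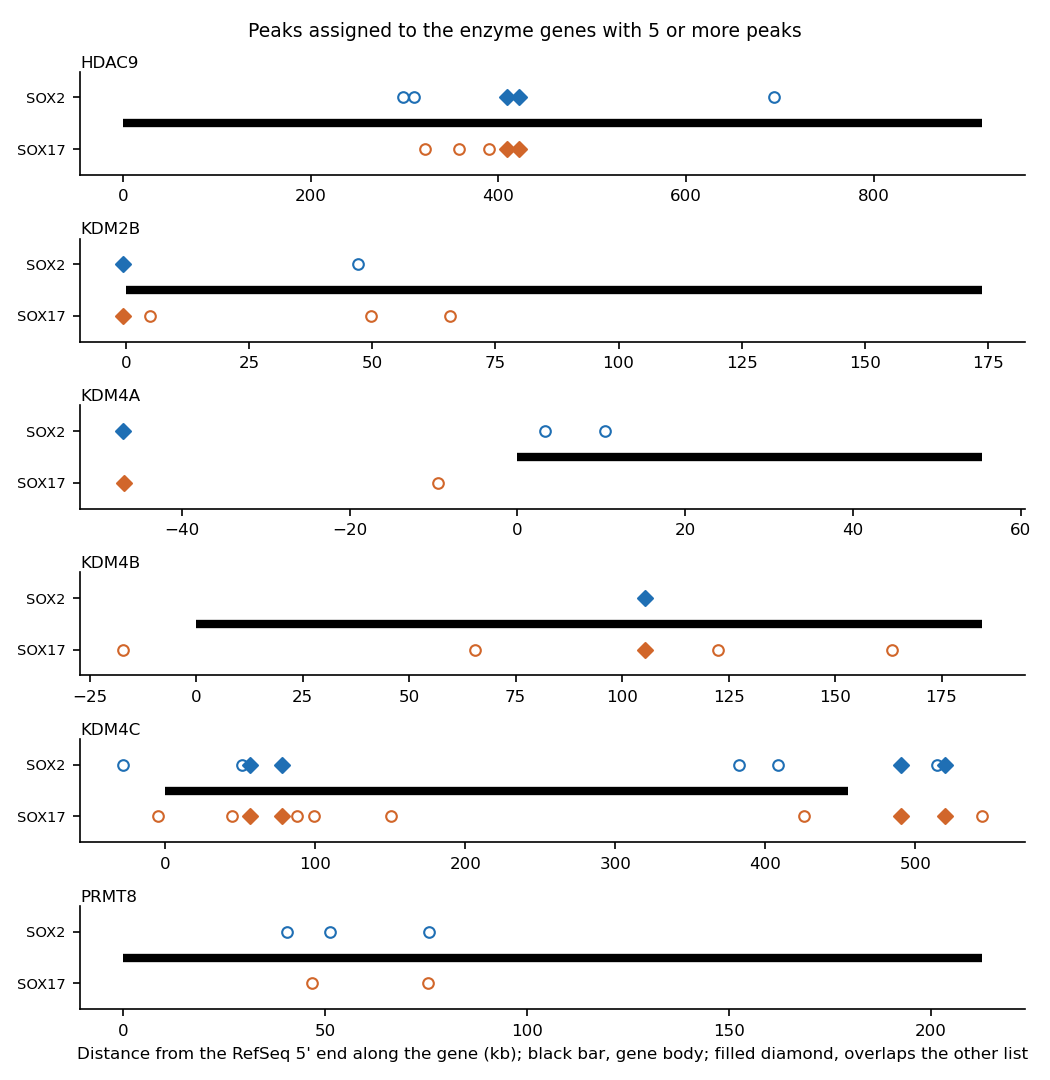
Peaks assigned to the 6 enzyme genes with at least 5 peaks are placed by distance from the RefSeq 5' end along the gene in kb, with SOX2 above and SOX17 below the gene body (black bar); filled diamonds overlap the other list. KDM4C shows 4 overlapping pairs, HDAC9 2 pairs in the middle of the gene, and PRMT8 none; peaks assigned to neighbouring genes are not drawn.

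The H3K4 and H3K27 demethylase groups had a peak at 2 of 6 and 0 of 2 genes. These numbers are too small to set apart from the 44.1% of all protein-coding genes. KDM7A, which also acts on H3K27 and had SOX17 peaks, was counted with the H3K36 and H3K9 group. Of the H3K4 demethylase genes, KDM1B had 1 SOX2 peak in intron 9 at percentile 61.4, and KDM5D had 1 SOX17 peak in an LTR5_Hs element 44745 bp from the TSS at percentile 3.87. KDM1A, KDM5A, KDM5B and KDM5C were named by neither list, nor were the H3K27 demethylase genes KDM6A and KDM6B.

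Among H3K4 methyltransferases, 5 of 8 genes had a peak, beside 44.1% of all protein-coding genes. KMT2A and KMT2C had overlapping ones, beside 12.0% of all. With 8 genes these counts cannot be set apart from the shares of all genes. KMT2A, the MLL1 enzyme that keeps Hox genes active, had its pair in intron 1, 25923 bp from the TSS. The percentiles there were 89.4 for SOX2 and 71.5 for SOX17. KMT2C, which methylates H3K4 at enhancers, also had its pair in intron 1, 36474 bp from the TSS, at percentiles of 75.0 and 84.3. At KMT2B a SOX17 peak 431 bp upstream of the TSS (percentile 30.2) and a SOX2 peak 1017 bp upstream (57.8), within ZBTB32, were 477 bp apart and did not overlap. KMT2E, whose own enzyme activity is in doubt, had 2 SOX2 peaks in an SRPK2 intron, 105198 and 110125 bp from its TSS. Their percentiles were 18.6 and 8.41. SETD7 had 1 SOX2 peak at 12.5 in an LTR40b element. KMT2D, SETD1A and SETD1B had none.

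All 3 H4K20 methyltransferase genes had 1 SOX2 peak each and no SOX17 peak, beside 31.5% of all protein-coding genes with a SOX2 peak and 10.6% in the SOX2 list alone. KMT5A, which places the first methyl group on H4K20, had an intronic peak at percentile 50.3. KMT5B and KMT5C, which add further methyl groups, had peaks at 35.5 in intron 2 and at 46.6, 944 bp upstream of the TSS. These scores were in the middle of the SOX2 list, and with 3 genes the pattern is a description.

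The other SET domain genes had more SOX17 than SOX2 peaks, 4 against 1, which are small counts. A peak was found at 3 of 6 genes, beside 44.1% of all protein-coding genes. SETD2, the enzyme that trimethylates H3K36, had 1 SOX17 peak in intron 1 at percentile 24.9. SETD3, which methylates actin on histidine, had 1 SOX17 peak 85842 bp from the TSS at 77.3. SETD5 had 2 SOX17 peaks, at 13.5 and 70.3, and 1 SOX2 peak at 59.0, which was 19691 bp from the nearest SOX17 peak. SETD4, SETD6 and SETD9 had none.

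Arginine methyltransferase genes had 5 SOX2 and 6 SOX17 peaks over 4 of 8 genes, beside 44.1% of all protein-coding genes. None of these peaks overlapped, and with so few this cannot be set apart from the 24.9% of all SOX2 and 25.3% of all SOX17 peaks that did. PRMT8, an enzyme found at the plasma membrane mainly in the nervous system, had 3 SOX2 peaks in intron 1 at percentiles 89.9, 87.8 and 57.2. Its SOX17 peak at chr12:3428091-3428196, also in intron 1, had a score of 275, rank 18 and percentile 99.90, the highest SOX17 peak of the enzyme genes. The second SOX17 peak (50.7) was separated by 129 bp from the SOX2 peak at 57.2.

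The leading PRMT8 peak sat in a Harlequin-int element, the internal part of an endogenous retrovirus, and held the compressed composite printed above, with 1 mismatch in its OCT part. Of 38 SOX17 peaks in Harlequin-int elements, 33 held the same 14 bases, and the PRMT8 peak had the highest score of the 38. Over all SOX17 peaks 188 held those 14 bases, 69 of them in HERV17-int elements. On the short arm of chromosome 12, which is often gained in germ cell tumours, the peak ranked 3 of 279 SOX17 peaks. Scores on that arm had medians of 40.7 for SOX17 and 47.4 for SOX2, above the list medians of 26.7 and 24.1, and the part of copy number in the PRMT8 scores was not tested. Ranked on the arm alone, the SOX2 peaks of PRMT8 fell at percentiles 68.6, 63.9 and 21.6.

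PRMT6, which methylates H3R2, had 4 SOX17 peaks and no SOX2 peak, at percentiles from 9.24 to 57.6. They lay between 116709 bp upstream and 1717 bp downstream of the TSS. PRMT2 had 1 SOX2 peak in a MER4-int element at 54.5 and PRMT9 had 1 in intron 8 at 56.4. PRMT1, PRMT3, PRMT5 and PRMT7 were named by neither list. PRMT5 is known to work with PRDM1 in mouse germ cells.

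Of 5 class I and IV deacetylase genes 2 had a peak, as did 2 of 6 class II genes, beside 44.1% of all protein-coding genes. Overlapping peaks were found at 2 and 1 of them, beside 12.0% of all. With so few genes these counts cannot be set apart from the shares of all genes. HDAC2, HDAC8 and HDAC9 were the genes with peaks of both factors and with overlapping ones. HDAC2, a catalytic subunit of the NuRD, SIN3 and CoREST complexes, had 1 pair 38260 bp upstream, in the antisense gene HDAC2-AS2 and within a MER4A1 element. Its SOX17 peak had a score of 156, rank 222 and percentile 98.7, and its SOX2 peak had percentile 72.3. HDAC8, the deacetylase of cohesin, had a pair in an L1PBa element in intron 2 at percentiles 17.4 for SOX2 and 37.6 for SOX17. It also had 1 further SOX2 peak (76.9) and 1 further SOX17 peak (2.54). HDAC1, HDAC3 and HDAC11 had no assigned peak.

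HDAC9, a class IIa deacetylase that partners MEF2 factors, had 5 peaks in each list, of which 2 pairs overlapped at annotated promoters within the gene. At the first, the peaks were centred 40 bp (SOX2) and 62 bp (SOX17) upstream of the TSS, with percentiles 85.5 and 94.0, and this region held the SOX and OCT sites shown above. At the second, further along the gene, the centres were 106 bp apart and the percentiles 30.6 and 63.4. The other SOX2 peaks ranged from 20.6 to 87.5 and the other SOX17 peaks from 31.3 to 89.7. HDAC9 is 915592 bp long, and its body held 6.55 SOX2 and 5.46 SOX17 peaks per Mb, close to the 5.76 and 5.67 of the genome. HDAC7, another class IIa gene, had 1 SOX17 peak 26 bp from its TSS at percentile 81.1. HDAC4, HDAC5, HDAC6 and HDAC10 had no assigned peak.

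Among 7 sirtuin genes, SIRT1 and SIRT5 had peaks, too few to set apart from the 44.1% of all protein-coding genes. SIRT1, a nuclear deacetylase that uses NAD, had a SOX2 peak 22674 bp upstream at percentile 89.7 and SOX17 peaks at 76.7 and 18.3, both within HERC4. The SOX2 and SOX17 peaks nearest to each other were 66021 bp apart. SIRT5, a mitochondrial enzyme, had 1 SOX2 peak at 1.51. SIRT2, SIRT3, SIRT4, SIRT6 and SIRT7 had none.

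**Figure D4:**
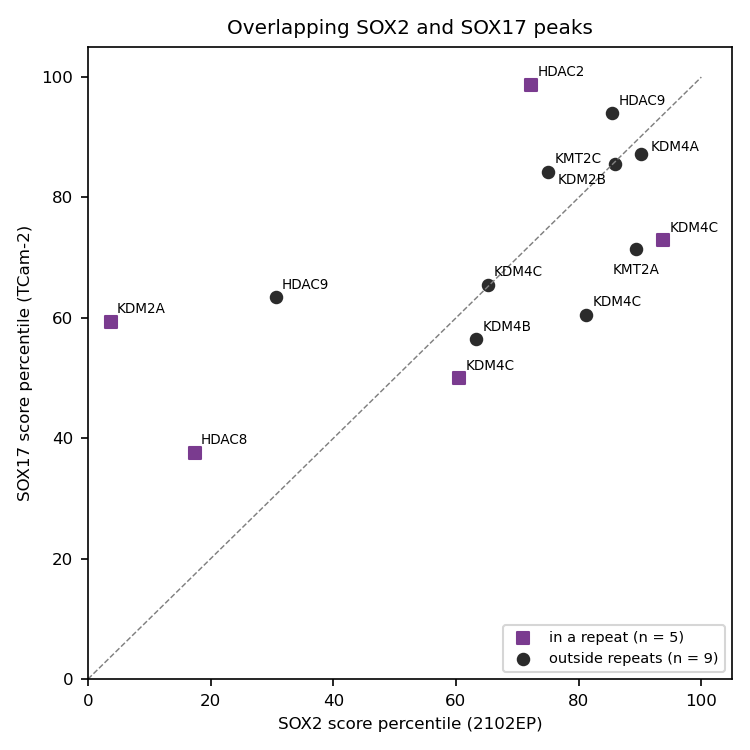
Each symbol is an overlapping pair assigned to the named gene, with the percentile of the SOX2 peak across and of the SOX17 peak upward; squares lie in repeats (5 pairs), circles do not (9 pairs), and the dashed line marks equal percentiles. HDAC2 and KDM2A lie above the line, with 98.7 against 72.3 and 59.4 against 3.68, and KDM4C and KMT2A below it, with 93.8 against 72.9 and 89.4 against 71.5.

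Centres of the overlapping pairs were 1 to 106 bp apart, with a median of 23 bp. The pairs were chosen for their overlap, so the widths of the peaks limit this distance. It was not set beside that of all overlapping pairs. The pairs of HDAC9, KDM4A and KDM2B ranked high in both lists, with both percentiles at 85.5 or more. Those of HDAC8, KDM2A and the second HDAC9 promoter ranked low in the SOX2 list, at 17.4, 3.68 and 30.6.

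Peaks at promoters were found at 6 enzyme genes. HDAC9 had them in both lists, KMT5C in the SOX2 list, and HDAC7, KDM2A, KDM4E and KMT2B in the SOX17 list. This made 5 genes of 63 (7.94%) for SOX17, against 2.32% of protein-coding genes, and 2 (3.17%) for SOX2, against 1.72%. GC content within 100 bp of the centre was 71.6% at HDAC7, 72.1% at KMT2B and 63.7% at KDM2A, and 39.3% at KDM4E. It was 47.3% at KMT5C and from 39.8% to 47.3% at the HDAC9 promoter peaks. The medians over all peaks were 43.8% for SOX2 and 44.8% for SOX17.

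SOX sites were less frequent in the SOX2 peaks of the enzyme genes than in all SOX2 peaks, but the counting interval reached the share of all. A SOX site lay within 100 bp of the centre in 20 of 42 SOX2 peaks (47.6%, Wilson interval 33.4 to 62.3), against 60.5% of all SOX2 peaks. For SOX17 it lay in 36 of 55 (65.5%, 52.3 to 76.6), against 67.1%. Of the 14 overlapping peaks, 11 in each list held a site (78.6%, 52.4 to 92.4), close to the 71.2% of all overlapping SOX2 peaks and the 71.3% of all overlapping SOX17 peaks. Of the peaks with no overlap, 9 of 28 SOX2 peaks held one (32.1%, 17.9 to 50.7), against 56.9% of all such SOX2 peaks. For SOX17 it was 25 of 41 (61.0%, 45.7 to 74.3), against 65.8%. The SOX2 interval lies below its share of all and the SOX17 interval holds its own, but this split was made after the values were seen. The 28 SOX2 peaks included the leading SOX2 peaks of KDM4A and KDM2B, which held none. An OCT site lay in 3 SOX2 peaks (7.14% against 15.1%) and in 3 SOX17 peaks (5.45% against 11.5%), those of HDAC9 and KDM2B and, apart from them, 1 SOX2 peak of KDM4C and 1 SOX17 peak of KDM3B.

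**Figure D5:**
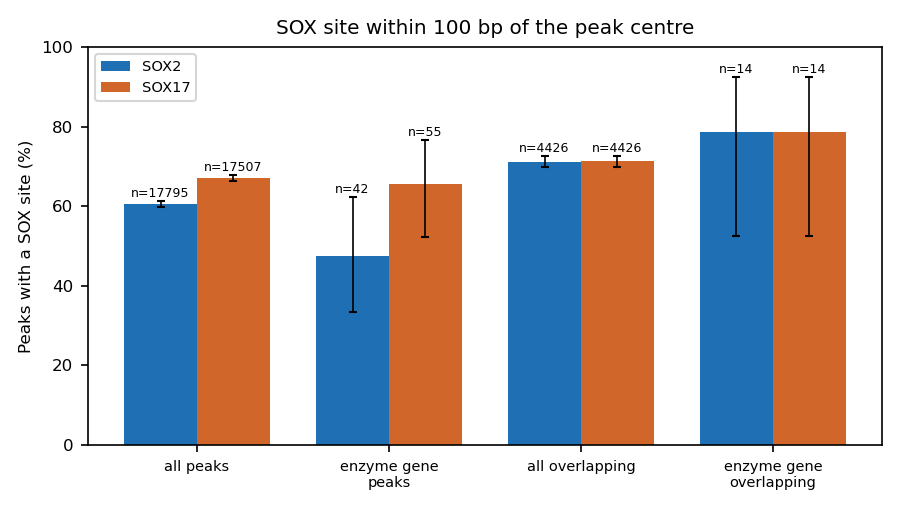
Bars give the percentage of SOX2 (blue) and SOX17 (orange) peaks with a SOX site within 100 bp of the centre, with 95% Wilson intervals and the number of peaks above each. The SOX2 peaks of the enzyme genes stand at 47.6% against 60.5% of all SOX2 peaks, and their overlapping peaks at 78.6% in both lists against 71.2% and 71.3% of all overlapping peaks, within the intervals.

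The canonical composite was found in 0 of 42 SOX2 peaks, which allows a share of up to 7.14%, and in 0 of 55 SOX17 peaks, up to 5.45%. Over all peaks it was in 1.66% and 0.366%. The compressed composite was in 0 SOX2 peaks and in 1 SOX17 peak (1.82%), that of PRMT8, against 0.0787% and 2.77% of all peaks. At these numbers a difference from the other peaks was not detectable.

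Assignment to the nearest TSS left out peaks inside enzyme genes. It did so at HDAC8, HDAC9, KDM2B, KDM3B, KMT2A and PRMT8, which also have assigned peaks. The body of HDAC8 held 5 SOX2 peaks, against 2 assigned. That of PRMT8 held 5 SOX2 and 3 SOX17 peaks, against 3 and 2 assigned. Of the 32 genes with no assigned peak, 6 had a peak centre inside their RefSeq body that was assigned to a neighbour. The share of such genes among all protein-coding genes was not counted. HDAC4, a class IIa deacetylase, had an overlapping pair in intron 2, in a MER126 element, at percentiles 94.4 for SOX2 and 71.8 for SOX17, assigned to MIR4269. HDAC3, a class I deacetylase, had an overlapping pair at 65.7 and 81.1, assigned to DIAPH1. SOX17 peaks also lay in PRMT1 (88.5, assigned to ADM5), KDM5B (83.2, assigned to SYT2, in an SVA_D element), KDM5A (71.5, assigned to CCDC77) and HDAC5 (8.22, assigned to G6PC3). The KDM5A peak is on the short arm of chromosome 12, with a score of 40 beside a SOX17 median of 40.7 on that arm.

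Genes that work with these enzymes were counted in the same way, complex by complex. Overlapping pairs were found at 8 of 29 Polycomb genes, 6 of 29 deacetylase complex genes, 2 of 22 other methyltransferase genes, 3 of 14 acetyltransferase genes, 3 of 12 COMPASS genes and 2 of 8 other demethylase genes, beside 12.0% of all protein-coding genes. Of the Polycomb genes, 15 had a SOX2 and 11 a SOX17 peak. PHC1, a subunit of the PRC1 complex, led them, with best percentiles of 99.3 for SOX2 and 97.8 for SOX17, followed by BCOR at 98.2 and 66.5. Of 29 subunits of deacetylase complexes, 14 had a SOX2 peak and 14 a SOX17 peak. There MTA3 of the NuRD complex had best percentiles of 98.0 for SOX2 and 85.7 for SOX17. Of the 22 genes listed as other methyltransferases, 11 had a SOX2 and 9 a SOX17 peak, with SMYD3 at 99.2 and SMYD2 at 98.7 for SOX17. The 22 and the 11 include SETBP1, a gene for a SET-binding protein and not a methyltransferase, with a SOX2 peak at 2.69. Of 14 acetyltransferase genes 8 were in each list, NCOA3 at 96.4 for SOX17 among them. Of 12 COMPASS genes, 3 had a SOX2 and 4 a SOX17 peak, with PSIP1 at 92.3 for SOX2. Of 8 other demethylase genes 4 were in each list, with JMJD1C at 95.3 for SOX2 and 91.0 for SOX17. These shares can be read beside the 31.5% and 33.5% of all protein-coding genes. Neither the sizes of the genes nor, for the percentiles, their copy number were taken into account.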

How the data were processed

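Per the labels' protocols, chromatin was crosslinked and digested enzymatically. Per the series' design text, each immunoprecipitation took 200 µg of chromatin and 5 µg of antibody. Per the same text, single-end reads of 75 bp, 25 M planned per sample, were placed on hg38 by CLC Genomics Workbench 12, and HOMER was used from there. The authors deposited 1 merged peak list per factor with a score for each peak, and did not state its scale. Also deposited were positions and TSS distances in bp, per the file headers. Neither the use of input nor the rule for merging is stated there.

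Peaks were ranked by score within a list. Gene shares used RefSeq genes of GRCh38.p14, matched by gene number, and sequences came from hg38. All 97 member peaks lay within 1000 bp of their deposited distance from a GENCODE 44 TSS of the same gene. Both strands were searched for sites up to 100 bp from the centre; a composite was a SOX site, 1 base (canonical) or 0 bases (compressed), then an OCT site in which 1 mismatch was allowed. The scripts were tested on simulated data. Python 3.11.15, pandas 2.3.3, SciPy 1.17.1 and pysam 0.24.0 were used. Shares have 95% Wilson intervals, and a count of 0 was bounded by 3 counts.

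Members and lists were chosen with earlier results of these data known. Every protein-coding member may be named; full values went to members with a leading, overlapping or promoter peak, a composite site or at least 4 peaks in a list, and in each partner list to genes among the 4 of highest percentile. A few sequences and 1 partner gene that these rules select are not reported here. A test of ChIP against input was planned but could not be made from merged lists. Alternatives were a stricter score, distance and repeat limits, protein-coding genes alone, other overlap rules, a narrower window, no mismatch and, added after seeing the data, assignment by gene body.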

Additional observations from a re-analysis of the deposited data

How the results depend on the processing

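No paired analysis was possible because the merged lists hold no values per library, and for the same reason no replicate could be left out. Among the alternative values of the main counts and medians, 6 moved and 46 stayed within 1.5 times the count or within the interval of the value given. With peaks above the median score of each list alone, SOX17 peaks of the enzyme genes numbered 34 against 55, and the medians, ranked again within those peaks, were 50.1 for SOX2 and 41.3 for SOX17. Within 50000 bp of the TSS there were 36 SOX17 peaks. Outside repeats 9 overlapping pairs were left of 14. With no mismatch in the OCT part, the compressed composite was in 0 SOX17 peaks against 1. The lower counts follow from fewer peaks or a narrower site. The medians of the higher-scoring peaks are on a new scale and cannot be read against the interval from the full list. Asking for an overlap of 50% of each peak left HDAC9 with 1 pair, and centres within 1000 bp added KMT2B and PRMT8. Depth per library is unknown, so weak peaks that were not listed cannot be judged.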
